A study of Mus musculus with 6 samples.

Results

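The Hedgehog pathway genes examined here were Disp1, Hhip, Cdon, Ptch1, Smo, Sufu, Gli1, Gli2 and Gli3, 9 of the 31854 gene rows of an RNA-seq count table from 4T1 cells, a mouse mammary carcinoma line. They were chosen by symbol from a list written with the LINC01133 against control difference of these libraries in view, Disp1 being known to differ, and each symbol had a single row. Their values are therefore given as a description, with no test. One group of 3 libraries came from cells holding a pLVX plasmid that expresses LINC01133, a human long noncoding RNA, and the other group of 3 from cells with the empty pLVX vector, labelled WT or control. The labels do not say whether a group was 1 clone or a pool, whether the groups share a parental culture, or whether the libraries of a group were separate cultures, so the spread between libraries, and each p-value, may be technical. "Higher" and "lower" below only compare the groups.

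Hedgehog ligands are secreted proteins that carry lipid on both ends, and Dispatched proteins release them from the cell that makes them. On the receiving cell the ligand binds Ptch1, which otherwise holds Smo inactive; Cdon, Boc and Gas1 are co-receptors that help the ligand bind, and Hhip is a membrane decoy that takes ligand away. Active Smo enters the primary cilium and frees the Gli transcription factors from Sufu, with Gli2 serving mainly as an activator, Gli3 mainly as a repressor and Gli1 as an activator that is itself induced. Ptch1, Hhip and Gli1 are the targets most used as readouts of the pathway. In the embryonic mammary gland, repression by Gli3 is needed for normal bud formation.

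Total counts ran from 26719396 to 33877549 in the LINC01133 libraries and from 25521469 to 27035127 in the controls, and Rn45s, the ribosomal RNA precursor, took 21.0% to 23.0% and 25.4% to 27.9% of them. Levels are given as CPM, counts scaled to a common library size with TMM factors; a floor of 3 counts was 0.0827 to 0.102 CPM per LINC01133 library and 0.123 to 0.128 CPM per control. The carcinoma label was set against epithelial markers. The epithelial adhesion gene Epcam had 78 counts over the LINC01133 libraries and 0 over the controls, and the E-cadherin gene Cdh1 had 138 and 4. Both genes were thus low with LINC01133 as well, at 0.79 and 1.39 CPM. The keratin gene Krt8 averaged 217.1 CPM with LINC01133 and 145.3 CPM in the controls, and its partner Krt18 averaged 158.2 and 2.06 CPM. The other way round, Krt7 averaged 2.31 and 7.59 CPM, Krt5 0.22 and 1.46 CPM, and Krt14 0.20 and 1.51 CPM, so that the list did not move as 1 block. In these bulk samples, fewer cells of a type and less RNA per cell cannot be told apart.

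Disp1 and Hhip, well measured with LINC01133 and with at most 1 read over the 3 controls, are shown first by the sequence around their annotated starts. The sequences come from RefSeq on GRCm38.p6, run from 250 bases before to 50 after a start, and read 5′ to 3′ on the gene's strand, with each CG pair, the site of vertebrate DNA methylation, in capitals. Disp1 has 2 annotated starts, both on the minus strand, an outer one at chr1:183221480-183221779 and an inner one at chr1:183147508-183147807. Hhip has 1, on the minus strand at chr8:80057959-80058258.
Disp1, outer start: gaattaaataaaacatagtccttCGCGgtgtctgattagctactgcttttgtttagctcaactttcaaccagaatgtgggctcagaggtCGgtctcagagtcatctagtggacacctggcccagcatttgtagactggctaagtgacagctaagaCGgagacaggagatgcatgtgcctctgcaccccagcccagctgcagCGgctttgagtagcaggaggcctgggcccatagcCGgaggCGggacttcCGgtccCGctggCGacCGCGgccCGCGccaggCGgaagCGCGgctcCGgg
Disp1, inner start: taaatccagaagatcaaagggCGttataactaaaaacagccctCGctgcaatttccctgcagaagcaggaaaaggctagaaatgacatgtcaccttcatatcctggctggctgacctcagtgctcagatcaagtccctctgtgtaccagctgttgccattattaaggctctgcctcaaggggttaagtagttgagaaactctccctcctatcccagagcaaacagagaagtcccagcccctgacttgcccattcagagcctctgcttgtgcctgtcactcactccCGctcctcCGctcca
Hhip: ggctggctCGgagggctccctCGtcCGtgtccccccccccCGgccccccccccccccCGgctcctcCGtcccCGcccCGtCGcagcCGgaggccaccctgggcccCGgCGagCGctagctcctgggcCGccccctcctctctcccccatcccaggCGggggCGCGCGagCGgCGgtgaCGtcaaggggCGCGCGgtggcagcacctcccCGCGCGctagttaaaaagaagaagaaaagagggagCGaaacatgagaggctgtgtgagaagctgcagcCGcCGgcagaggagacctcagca
The outer Disp1 window held 18 CG pairs and 58.7% G and C, the inner one 4 and 50.7%, and the Hhip window 30 and 73.7%, against a median of 7 and 52.7% over 32851 windows of the same length. The Disp1 and Hhip windows thus lay apart in base composition. The counts do not tell which Disp1 start was in use. The Gli-binding motif GACCACCCA, searched on both strands, was in none of the 9 windows annotated for 8 members (Gli1 had no entry) and in 0.253% of all windows. The E-box CANNTG, a pattern that is its own reverse complement, occurred 4 times in the outer Disp1 window, 0 times in the Hhip window and at least 4 times in 6.49% of all windows.

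With LINC01133, Disp1 and Hhip were at levels like those of other pathway genes, while in the controls Disp1 had no read and Hhip had 1 read over the 3 libraries. The co-receptor gene Cdon was also higher with LINC01133. Ptch1, Smo and Gli3 were slightly lower, which for Smo and Gli3 turned round with library size as the only scaling (0.03 each on the log2 scale), Sufu was at a similar level in both groups, and Gli1 and Gli2 were near the lower limit of the count filter in both groups. The genes most used as readouts therefore did not move as 1 block: Hhip was far higher, Ptch1 was somewhat lower, and the Gli1 groups overlapped.

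Disp1, which encodes the transporter that releases lipid-modified Hedgehog ligands, lies on chromosome 1 at 183086266 to 183221522 of mm10, minus strand, in GENCODE M21. It had 960, 1187 and 1041 counts in the LINC01133 libraries, or 32.6, 32.7 and 31.5 CPM, and 0, 0 and 0 counts in the controls. Every LINC01133 library was high and every control was at 0. Against a floor of 3 counts over the control group, the level was at least 773-fold higher with LINC01133. BC085271, a pseudogene on the same strand, is annotated within the span of Disp1 and has no row of its own. Whether it overlaps the counted bases of Disp1 was not examined, so reads from the pseudogene may be among those of Disp1.

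Hhip, the decoy receptor gene, lies on chromosome 8 at 79965851 to 80058006, minus strand. It had 1128, 1360 and 1253 counts with LINC01133, or 38.3, 37.5 and 37.9 CPM, and 0, 1 and 0 counts in the controls. The groups were far apart in all 6 libraries, and the ratio of summed counts per scaled library was 2721, with an exact 95% interval from 488.0 to 107500 that covers counting error only. Without control 2, which holds the only control read, the log2 value would be a bound of 9.23, against 11.41 with all libraries.

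Cdon, a co-receptor of the immunoglobulin superfamily on chromosome 9, had 43.9, 43.8 and 42.0 CPM with LINC01133 and 23.9, 24.8 and 24.5 CPM in the controls. The groups did not overlap, and the log2 fold change was 0.82 (SE 0.0526). Cdon thus differed in the same direction as Disp1 and Hhip but by less than 2-fold. With library size alone its log2 fold change was 1.07, just past 2-fold.

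Ptch1, the receptor gene on chromosome 13, had 37.3, 38.1 and 39.6 CPM with LINC01133 and 51.2, 48.9 and 51.8 CPM in the controls, a log2 fold change of -0.40 (SE 0.0460). Smo, the signal-transducing membrane protein gene on chromosome 6, had 130.3, 129.1 and 130.0 CPM with LINC01133 and 154.4, 147.4 and 148.7 CPM in the controls, a log2 fold change of -0.21 (SE 0.0285). Every LINC01133 library was below every control for both genes. Part of this offset rests on the scaling: with library size alone the median of all genes moved by 0.24 on the log2 scale, to 0.29 against 0.05, and the Smo fold change turned to 0.03, while that of Ptch1 was -0.16.

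Sufu, the cytoplasmic inhibitor of Gli proteins on chromosome 19, had 45.5, 45.1 and 44.1 CPM with LINC01133 and 42.6, 44.3 and 41.1 CPM in the controls. Its groups overlapped, with a log2 fold change of 0.07 (SE 0.0462). Gli3, on chromosome 13, had 114.4, 110.7 and 112.2 CPM with LINC01133 and 129.2, 133.5 and 128.9 CPM in the controls, a log2 fold change of -0.22 (SE 0.0298). The Gli3 groups did not overlap, and the fold change turned to 0.03 with library size alone.

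Gli1, on chromosome 10, had 23, 37 and 28 counts with LINC01133 and 22, 36 and 36 in the controls, or 0.781, 1.02 and 0.846 CPM against 0.902, 1.499 and 1.54 CPM. The groups overlapped, control 1 lying among the LINC01133 values, and the log2 fold change was -0.56 (SE 0.267). Gli1 overlaps the antisense gene Gm47200, which has no row, and Arhgap9 by 62 bases on the other strand. Whether counting used the strand is not given in the sources used here, and overlap with counted bases was not examined. Reads of these partners may thus be among those of Gli1. Gli2, on chromosome 1, had 7, 6 and 11 counts with LINC01133 and 2, 1 and 0 in the controls, and did not pass the count filter. Its ratio of 5.82 had an exact 95% interval from 1.77 to 30.2, counting error only, and its log2 value of 2.54 ran from 1.96 without control 3 to 3.52 without control 1. Neither activator gene reached 2 CPM in any library.

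**Figure D1:**
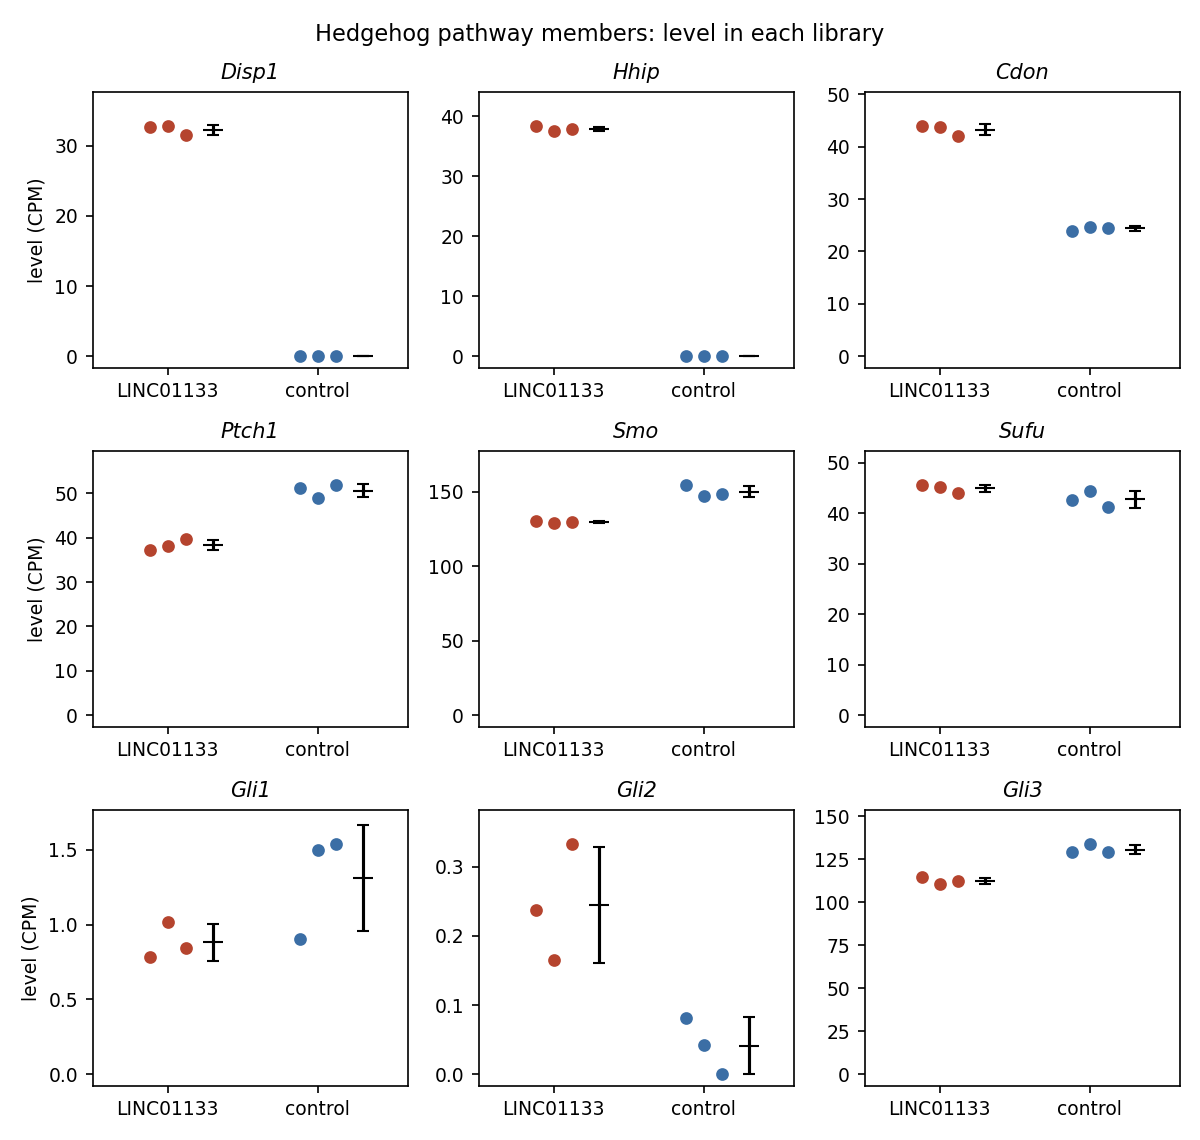
Level of each member in CPM (vertical axis, a separate scale per gene) in the 3 LINC01133 libraries (red) and the 3 controls (blue), with the mean and SD as black marks. Disp1 and Hhip stand at 31.5 to 38.3 CPM with LINC01133 and at or near 0 in the controls, Cdon is higher with LINC01133, Ptch1, Smo and Gli3 are lower (Smo and Gli3 not with library size alone), and the Sufu and Gli1 groups overlap.

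Of the 9 members, 8 passed the count filter, Disp1 and Hhip only through their LINC01133 libraries. By edgeR's quasi-likelihood test at an adjusted p under 0.05, 3 were higher and 4 lower, 7 of 8 in all, where 84.9% of the 14116 genes tested were called, 44.5% higher and 40.5% lower. Gli1, whose groups overlap, was among the 4 lower and was not called at an adjusted p under 0.01. Differences of at least 2-fold were called in 2 of 8, both higher, where the share over all genes was 34.1%, with 20.3% higher. The groups did not overlap for 7 of the 9 members, against 85% of the genes tested. The members were chosen with this contrast known and these shares are near those of all genes, so nothing is read from the counts.

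Levels of different genes were compared per length, as CPM per kilobase of the deposited gene length. With LINC01133 the order was Smo at 19.1, Gli3 at 11.7, Sufu at 6.36, Disp1 at 6.14, Cdon at 5.92, Ptch1 at 5.21, Hhip at 4.17, Gli1 at 0.194 and Gli2 at 0.0360 CPM per kilobase. Disp1 and Cdon overlapped between libraries, and every other pair of neighbours in this order was apart in all 3 libraries. Disp1 thus stood with Sufu, Cdon and Ptch1, and its level exceeded that of 51.9% of the genes tested. In the controls the order was Smo at 22.1, Gli3 at 13.6, Ptch1 at 6.87, Sufu at 6.05, Cdon at 3.34, Gli1 at 0.288, Gli2 at 0.00604, Hhip at 0.00153 and Disp1 at 0 CPM per kilobase. The ranges of Gli2, Hhip and Disp1 met or overlapped there, and the other neighbours were apart.

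Ratios within a library do not depend on the scaling. The ratio of Smo to Gli3 per length was 1.631 ± 0.0197 with LINC01133 and 1.625 ± 0.0641 in the controls (SD, n = 3 each), a difference smaller than the spread. Ptch1 to Smo was 0.272 ± 0.00857 with LINC01133 and 0.311 ± 0.00879 in the controls, and Sufu to Gli3 was 0.542 ± 0.0102 and 0.444 ± 0.00943, so that both ratios lay apart in all libraries. Hhip to Ptch1, decoy over receptor, was 0.802 ± 0.0290 with LINC01133 and 0.00023 ± 0.000398 in the controls. The Gli3 excess over Gli1, 61.4 ± 9.14 with LINC01133 and 50.1 ± 15.6 in the controls, did not differ beyond its spread. Between libraries of a group, Disp1 with LINC01133 had a coefficient of variation of 2.19%, against 3.07% from counting alone, and Smo had 0.479% with LINC01133 and 2.47% in the controls, against 1.53% and 1.67%.

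**Figure D2:**
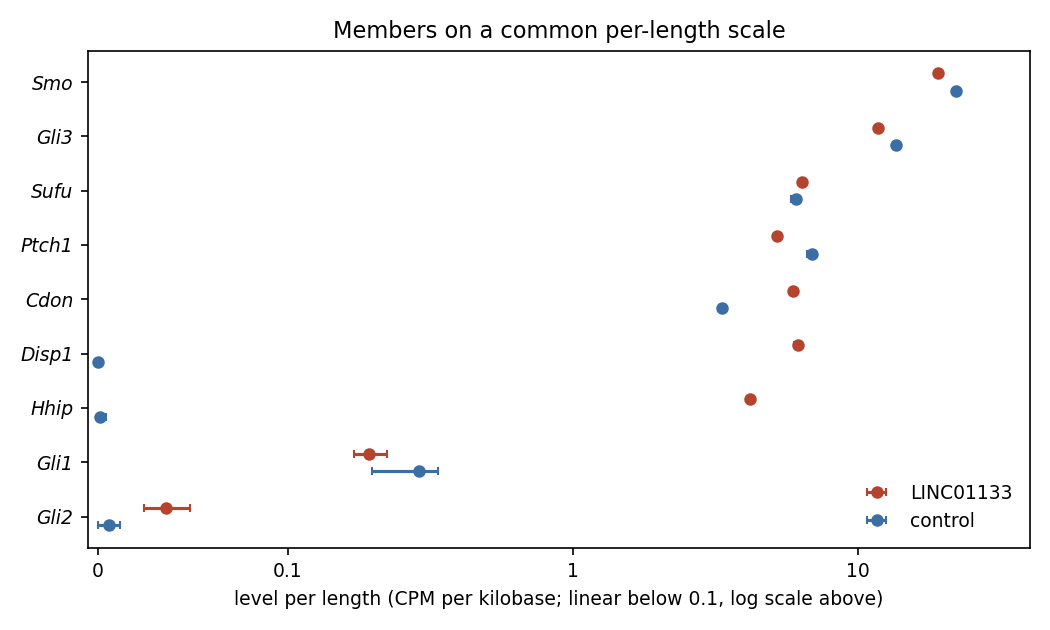
Mean level of each member in CPM per kilobase (horizontal axis, linear below 0.1 and logarithmic above), with LINC01133 in red and control in blue; bars span the lowest to the highest of 3 libraries. Smo and Gli3 lead in both groups, and Disp1 and Hhip go with Sufu, Ptch1 and Cdon with LINC01133 and lie at the low end in the controls.

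The other genes of the pathway were taken from lists by role, with the same test over all genes (edgeR's quasi-likelihood test, adjusted p under 0.05). These lists were also chosen with earlier results of these data known, so their calls and p-values are given as a description. Of 141 distinct genes listed, 129 were tested, 55 were higher and 57 lower with LINC01133, and 86.8% were called, next to 84.9% of all genes. At least 2-fold differences were found in 20 higher and 23 lower genes, 33.3% next to 34.1%. Over all genes, 6280 were higher and 5710 lower, or 7847 and 4228 with library size alone. List medians were the same to 2 decimals with genes at 0 in a group put at their bound. The lists differed among themselves in where those larger differences lay.

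Of the genes of ligand production and release, apart from Adam17 at low levels, 6 of 7 tested rose and 1 fell (median log2 fold change 1.82). Of all genes, 44.5% were higher and 40.5% lower. Differences of at least 2-fold numbered 5, all higher, where 20.3% of all genes were 2-fold higher. Dhh, Ihh and Scube2 passed the count filter only through their LINC01133 libraries. They could thus be tested only if higher, and nothing is read from the count. With the 1 CPM filter, 5 genes were tested (median 1.80). Dhh, a Hedgehog ligand gene, had 2.04, 1.71 and 1.39 CPM with LINC01133 and 0, 1 and 0 counts in the controls, a ratio of 122.2 with an exact 95% interval from 21.6 to 4854. Its only control read is in control 2, without which the fitted log2 fold change was 8.65, against 6.54 with all libraries, a value that depends on the prior count. Ihh, another ligand gene, rose to 0.593 ± 0.0721 CPM with LINC01133, against 0.153 ± 0.120 CPM in the controls (SD, n = 3), a log2 fold change of 1.93, or 2.77 without control 2, which holds 7 of its 11 control counts. Both ligand genes were thus well below Disp1, and Shh was not analysed here. Disp2, the Dispatched paralog, rose to 3.16 ± 0.275 CPM with LINC01133, against 0.889 ± 0.325 CPM in the controls (log2 fold change 1.82, SE 0.215; edgeR quasi-likelihood, Benjamini-Hochberg adjusted p = 1e-13). The Scube genes encode secreted proteins that help take ligand from Dispatched: Scube2 and Scube3 rose (log2 fold changes 2.52 and 1.77), while Scube1, with 14 and 1 counts, was not tested. Adam17, a sheddase of membrane-bound proteins, rose slightly (0.38). Hhat, the acyltransferase that puts palmitate on the ligands, fell to 5.20 ± 1.01 CPM with LINC01133, against 9.19 ± 1.19 CPM in the controls (log2 fold change -0.83).

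Among genes of reception, the co-receptors other than Cdon were almost lost with LINC01133. Lrp2, the endocytic receptor megalin that also binds ligand, had 0.170, 0.331 and 0.242 CPM with LINC01133 and 234.5, 232.6 and 225.5 CPM in the controls (log2 fold change -9.81, SE 0.0752; edgeR quasi-likelihood, adjusted p = 1.6e-136). Gas1, a lipid-anchored co-receptor, had 5, 3 and 2 counts with LINC01133 and 1442, 1291 and 1328 in the controls (log2 fold change -9.06, SE 0.136). Boc, the closest relative of Cdon, had 0.476, 0.414 and 0.635 CPM with LINC01133 and 26.1, 22.5 and 22.9 CPM in the controls (log2 fold change -5.55, SE 0.136). All LINC01133 libraries were far below all controls for these 3 genes, and of the co-receptors Cdon, Boc and Gas1 only Cdon exceeded 1 CPM with LINC01133.

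Over the whole reception list, 4 of 7 tested genes fell, each by at least 2-fold, and 2 rose, 1 of them by at least 2-fold. Differences of at least 2-fold were thus called in 71.4%, against 34.1% of all genes, and differences of any size in 85.7%, against 84.9%. The median log2 fold change was -1.32, or -0.0015 over 9 genes without a count filter. The glypican gene Gpc6 fell (-1.32), and Mgrn1, a ubiquitin ligase gene of a complex that lowers Smo, had 69.1 ± 1.24 CPM with LINC01133 and 68.4 ± 3.37 CPM in the controls (0.01, adjusted p = 0.75 by edgeR's quasi-likelihood test, but called higher with library size alone, at 0.26). Gpc3 and Gpc5, with 1 and 21 counts with LINC01133 and 0 and 1 in the controls, were not tested.

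**Figure D3:**
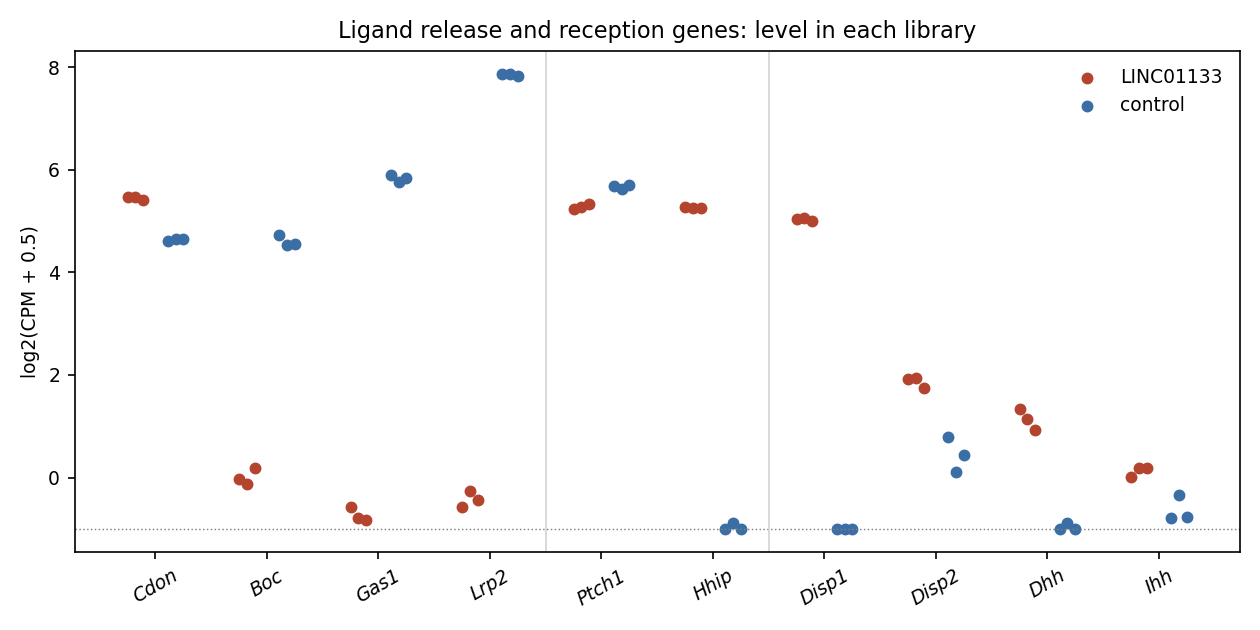
Level of co-receptor, receptor and decoy, and ligand or ligand release genes as log2(CPM + 0.5) (vertical axis) in the 3 LINC01133 libraries (red) and the 3 controls (blue); the dotted line is 0 CPM. Boc, Gas1 and Lrp2 lie near the line with LINC01133 and high in the controls, and Hhip, Disp1, Disp2 and Dhh are higher with LINC01133.

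The genes that act between Smo and the Gli proteins differed by little. Of 14 tested genes that regulate Smo and the ciliary receptor Gpr161, 6 rose (3 without control 2) and 6 fell. That was 85.7% called, against 84.9% of all genes (44.5% higher and 40.5% lower). A difference of at least 2-fold was called in 1 (7.14%, against 34.1% of all genes), Evc, which anchors Smo signalling at the base of the cilium. Evc fell to 13.9 ± 0.678 CPM with LINC01133, against 33.4 ± 0.911 CPM in the controls (-1.27). Its partner Evc2 rose (0.46), as did Arrb1, a beta-arrestin gene (0.71), and Adrbk1, a receptor kinase gene also called Grk2 (0.64), while Ankmy2 and Arrb2 fell (-0.60 and -0.47). The median was -0.03, or 0.22 with library size alone and 0.07 with upper-quartile scaling, so that the direction of the group as a whole is set by the scaling.

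Of 25 genes of Gli phosphorylation, processing and turnover, 10 rose and 14 fell (median log2 fold change -0.08, or 0.17 with library size alone). That was 96% called, against 84.9% of all genes (44.5% higher and 40.5% lower). Differences of at least 2-fold numbered 4 (16%, against 34.1% of all genes), all lower. With library size alone 2 were higher and 1 lower, and without control 1, 2 were lower. The 4 were the ubiquitin ligase adaptor genes Btrc and Spop (-1.43 and -1.07), Dyrk2 (-1.02) and the protein kinase A subunit gene Prkaca (-1.0045), which lies just past the limit and was named after its value was seen. Spop directs full-length Gli proteins to degradation and Btrc directs their processing to repressors. Cul3, the scaffold that works with Spop, rose (0.76), as did Stk36 and Kctd11 (0.97 and 0.75).

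Genes of the primary cilium, which the pathway needs for Smo to signal, were called in both directions. Of 53 tested, 24 rose, 17 fell (8 with library size alone) and 12 were not called. That was 77.4% called, against 84.9% of all genes (44.5% higher and 40.5% lower). The median log2 fold change was 0.16, or 0.40 with library size alone. At least 2-fold differences were found in 8 higher and 5 lower genes, 24.5% in all, against 34.1% of all genes. The 3 highest fold changes among cilium genes averaging at least 1 CPM were those of Mks1, Nphp4 and Tctn1, of the transition zone at the cilium's base. Mks1 had 7.78, 8.05 and 7.37 CPM with LINC01133 and 0.123, 0 and 0.128 CPM in the controls (log2 fold change 6.46, SE 0.277). Nphp4 had 276 counts with LINC01133 and 3 in the controls, a ratio of 66.9 (exact 95% interval 22.7 to 326.4; fitted log2 fold change 5.92, or 6.80 without control 3), and Tctn1 rose to 21.9 ± 0.588 CPM, against 4.96 ± 0.420 CPM in the controls (2.14). Cc2d2a, of the same zone, fell (-1.39), as did Dync2h1, the motor that returns cargo from the cilium's tip (-1.48), and Bbs9, of the membrane traffic complex BBSome (-1.18).

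Genes known as Gli targets in one tissue or another were mostly lower and far apart from each other. Of 20 tested, 13 fell and 6 rose, where 40.5% and 44.5% of all genes did. The median log2 fold change was -0.71, or -0.46 over 24 genes without a count filter. By at least 2-fold, 8 fell and 5 rose, 65% in all, against 34.1% of all genes. The forkhead genes Foxd1 and Foxf2 and the BMP antagonist gene Grem1 were nearly absent with LINC01133. Grem1 had 3 counts with LINC01133 and 3272 in the controls, 1500-fold lower by the ratio of counts (exact 95% interval 512.7 to 7276); the fitted log2 fold change, -10.36, was -13.29 without LINC01133 library 3, where the prior count sets it. Foxd1 had 2 and 2101 counts, 1445-fold lower (399.4 to 11940), and Foxf2 fell to 0.0499 ± 0.0140 CPM, against 12.5 ± 0.491 CPM in the controls (log2 fold change -7.83).

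Further targets were named after their values were seen: Foxf1, like Foxf2 a target in gut mesenchyme, had 5.43, 5.46 and 4.77 CPM with LINC01133 and 132.2, 127.4 and 135.9 CPM in the controls (-4.66, SE 0.0537), Foxl1 and Bmp4 fell (-3.97 and -6.92), and the cyclin genes Ccnd1 and Ccnd2 fell (-1.02 and -2.84). Against this direction, Sfrp1, a secreted Wnt antagonist, averaged 23.2 ± 1.20 CPM with LINC01133 and 0 CPM in the controls, at least 556-fold higher. Snai1, a transcription factor of epithelial-mesenchymal transition, averaged 12.8 ± 0.973 CPM with LINC01133 and 0 CPM in the controls, at least 304-fold higher. Hhip, also a known target, likewise was high with LINC01133 and near 0 in the controls. Mesenchymal markers moved with this list: of 8 fibroblast and mesenchymal markers tested 6 fell and 2 rose, with Twist1 at 0 reads with LINC01133 and the N-cadherin gene Cdh2 at 2 counts, while the fibroblast marker Dcn had 409 counts with LINC01133 and 1 in the controls and Vim was slightly higher (0.22). The summed level of the list, most of it Vim, was 2076 to 2138 CPM with LINC01133 and 2110 to 2199 CPM in the controls. Of 9 epithelial and carcinoma markers tested 6 rose and 3 fell, summing to 385.5 to 393.4 CPM with LINC01133 and 155.5 to 164.0 CPM in the controls. For both marker lists the share over all genes was 44.5% higher and 40.5% lower. Leukocyte markers summed to 18.2 to 19.1 and 5.42 to 6.62 CPM, most of it Cd68 and Itgam, with the defining gene Ptprc at 18 and 5 counts. Of 4 leukocyte markers tested 3 rose and 1 fell, Lyz2, with 13 and 135 counts. Endothelial markers summed to 6.11 to 6.65 and 0.123 to 0.512 CPM, with the defining gene Cdh5 at 1 and 0 counts. Their part in the pathway's differences was not tested.

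The relatives of Disp1 and Ptch1 that share the Patched domain also spread widely, with 4 of 6 tested higher and 2 lower. Over all genes, 44.5% were higher and 40.5% lower. Npc1l1, an intestinal cholesterol transporter gene, averaged 2.80 ± 0.318 CPM with LINC01133 and 0 CPM in the controls, at least 66.7-fold higher. Ptchd4, of unsettled function, had no read with LINC01133 and 25.2 ± 2.23 CPM in the controls, at least 829-fold lower. Npc1, the lysosomal cholesterol transporter gene, had the least difference of the 6 (-0.28, and -0.03, not called, with library size alone).

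**Figure D4:**
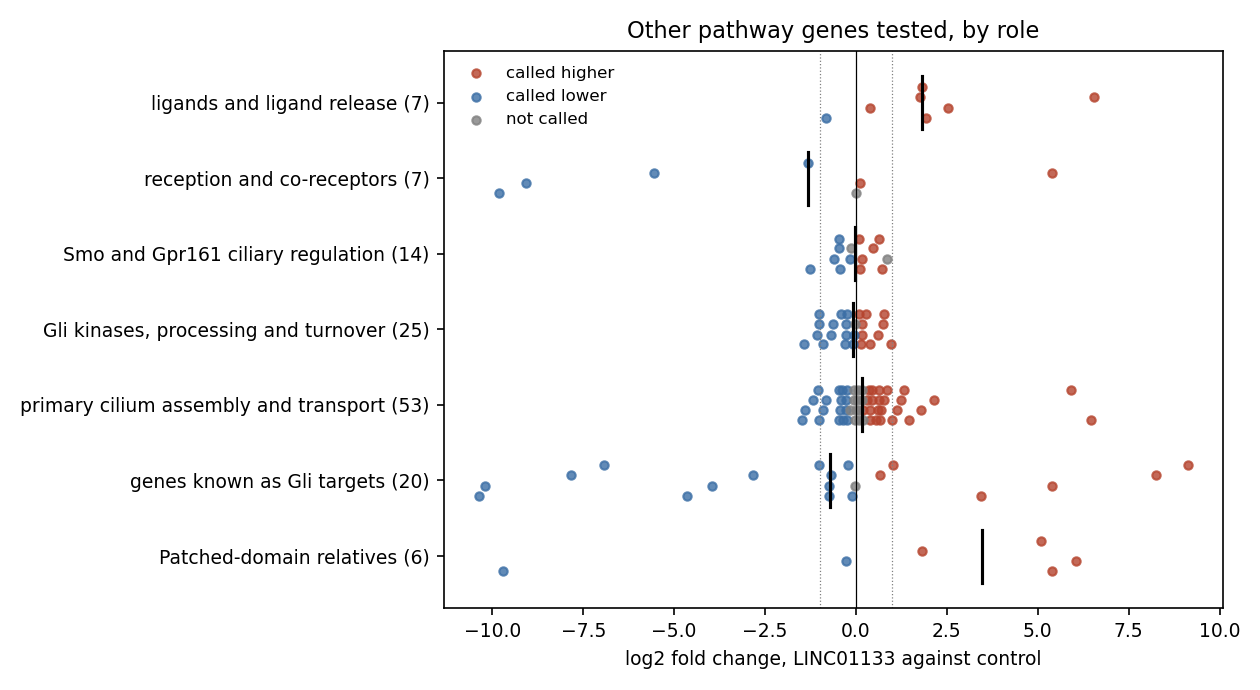
Log2 fold change, LINC01133 against control (horizontal axis), of each tested gene in 7 lists by role (number tested in brackets), in red where called higher, blue where called lower and grey where not called; bars are list medians, dotted lines mark 2-fold, and genes with no read in a group are drawn at their bound. Genes between Smo and Gli cluster near 0, and reception, target and Patched-domain genes spread to both sides. Ligand and ligand release genes lie on the higher side except Hhat (-0.83).

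The genes beside Disp1 on chromosome 1 were looked at because position had no part in the choice of members. On its low-coordinate side, Tlr5, the flagellin receptor gene, 110221 bases away, had 3.87, 3.14 and 3.44 CPM with LINC01133 and 1, 0 and 0 counts in the controls (ratio 248.7, exact 95% interval 44.3 to 9852). Susd4, a complement inhibitor gene 189674 bases away, had 1.19, 1.19 and 1.21 CPM with LINC01133 and 0, 1 and 0 counts in the controls (ratio 85.8, interval 15.1 to 3418). Each rests on 1 control read: without the library that holds it, fitted log2 fold changes were 9.67 for Tlr5 (without control 1, against 7.57) and 8.13 for Susd4 (without control 2, against 6.03), values that depend on the prior count. On the other side, Brox, 54829 bases away, rose to 87.2 ± 3.41 CPM with LINC01133, against 74.9 ± 3.06 CPM in the controls (0.22), and Mia3 was not called. Ccdc185 on the low side, with 1 and 0 counts, and Aida on the high side, with 9 and 0, were not tested. Tlr5 and Susd4 passed the count filter only through their LINC01133 libraries. A neighbour near 0 in the controls could thus be tested only if higher. The tested neighbours on the high side were well expressed in both groups. Disp1 and its 2 nearest tested neighbours on the low side were at or near 0 in every control and higher with LINC01133, a pattern partly set by the filter. Hhip lacked such neighbours: its 4 tested neighbours had log2 fold changes from -0.35 to 0.30. The pattern was not confined to Disp1: beside Gli2, Tfcp2l1 had 131 counts with LINC01133 and 3 in the controls (log2 fold change 4.84). Tmem185b, also beside Gli2, was lower with LINC01133 (-5.56). Over the other 8 members, 10 of 37 tested neighbours were higher and 18 lower, 5 and 4 by at least 2-fold. Of all genes tested, 44.5% were higher and 40.5% lower, 20.3% and 13.9% by at least 2-fold.

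**Figure D5:**
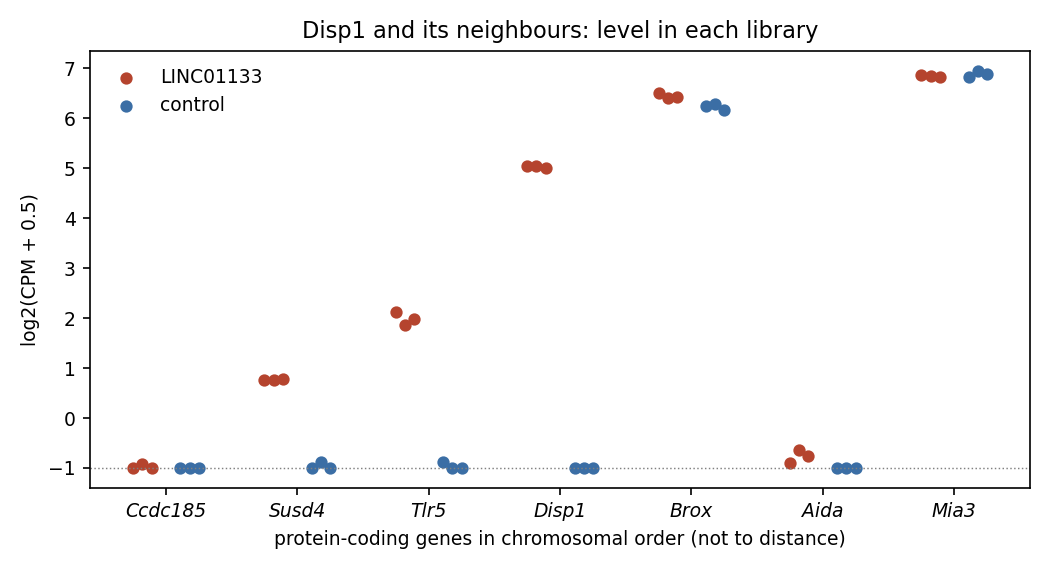
Level of Disp1 and the 3 protein-coding genes on either side, in chromosomal order, as log2(CPM + 0.5) (vertical axis), in the 3 LINC01133 libraries (red) and the 3 controls (blue); the dotted line is 0 CPM. Susd4, Tlr5 and Disp1 are at or next to the line in the controls and above it with LINC01133, and Brox and Mia3 are high in both groups.

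The genes whose levels were most like those of Disp1 over the 6 libraries, by Euclidean distance of log2(CPM + 0.5), were Dll1, a Notch ligand gene, at 0.22, the glycosyltransferase gene B3gnt3 at 0.24, Lama4, a laminin chain gene, at 0.32, Espn, an actin bundling protein gene, at 0.37, and the alpha-arrestin gene Arrdc4 at 0.39. Hhip came next, at rank 6 with a distance of 0.42. Of all genes tested, 319 had no read in the controls, and 19 had at most 1 control count with at least 20 CPM with LINC01133, Disp1 and Hhip among them. Such a pattern was thus shared by genes outside the pathway, on other chromosomes.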

How the data were processed

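What the authors deposited is a single table of whole-number raw counts for the 6 samples; per the file headers, it also holds gene lengths in bases (another unit, used for levels per length), and its row names join a UCSC identifier to a symbol. The submitters' processing notes name the mm10 build and the demultiplexer bcl2fastq. No aligner or counter, and no strand setting, is given in the sources used here. RNA libraries were prepared with an Illumina TruSeq kit, per the labels' protocols. Columns of no sample numbered 0.

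Genes kept by filterByExpr (14116) were fitted in R 4.3.3 with edgeR 4.0.16, using TMM factors and robust dispersions, and tested by its quasi-likelihood method at a Benjamini-Hochberg adjusted p under 0.05. SEs are the log2 fold change divided by the square root of F. CPM use TMM-scaled library sizes, and errors are SDs over 3 libraries. Where a group had no read, folds are bounds against 3 counts over the group; ratios carry exact 95% intervals. Replicates differed by a chi-square of 1.61 to 2.32 per degree of freedom, above sampling noise. The fit was tested on simulated data of 13839 genes, with 50 changed at each fold of 1.25, 1.5, 2 and 4. It recovered 48, 50, 50 and 50 of them, with 7 false calls. So few changed genes cannot test the scaling of the real data, where 84.9% of genes were called.

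Members and lists were chosen with earlier results of these data known. Genes named were the members; of each list, the called genes with the 3 largest and 3 smallest log2 fold changes at a mean of at least 1 CPM; the ligand and reception genes, apart from some not reported here; the 5 genes nearest to Disp1; and its called neighbours. Others are said to be added. The fit was repeated with scaling by RLE, by upper quartile or by library size alone, count filters, the replicate number as a block, each library left out, no robust option, DESeq2 1.42.0, limma voom (limma 3.58.1), an adjusted p under 0.01 and, added after seeing the data, library size without Rn45s. Figures were drawn with matplotlib 3.10.9. The LINC01133 transcript was not analysed here, so it is no check of the labels.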

Additional observations from a re-analysis of the deposited data

How the results depend on the processing

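With library size alone, log2 fold changes were 9.84 for Disp1 (a bound, 9.59 by TMM), 11.65 for Hhip (11.41), 1.07 for Cdon, -0.16 for Ptch1, 0.034 for Smo, 0.32 for Sufu, -0.32 for Gli1, 2.78 for Gli2 (2.54) and 0.028 for Gli3, so that Smo and Gli3 changed sign. With the Rn45s row also left out, a setting added after seeing the data, they were 9.75, 11.56, 0.98, -0.25, -0.0581, 0.22, -0.41, 2.69 and -0.0638. Upper-quartile scaling gave 9.69, 11.51, 0.92, -0.30, -0.11 and 0.17 for Disp1 to Sufu and -0.12 for Gli3, and the 1 CPM filter gave 11.44 for Hhip, 0.86 for Cdon, -0.18 for Smo and -0.19 for Gli3. For the filter the cause was not tested. The scaling also moved the split of all calls: 65% of all calls were higher with library size alone (7847 higher, 4228 lower) and 60.2% with Rn45s also left out, against 52.4% by TMM.

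With library size alone, lower calls numbered 8 of the Gli processing genes (14 by TMM), 8 of the cilium genes (17) and 1 of the Patched-domain genes (2). At least 2-fold calls there were 2 higher and 1 lower for Gli processing genes (0 and 4), 2 lower for cilium genes (5) and 1 higher for Smo and Gpr161 regulators (0). With Rn45s also left out these were 1, 1, 3 and 1, and with upper-quartile scaling 1 higher and 1 lower for Gli processing and 3 lower for cilium genes. Without a count filter, 2-fold higher genes numbered 4543 over the table (2860), 2 for reception and 1 for Smo and Gpr161 regulators, and list medians were -0.0015 for reception (-1.32), 0.06 for Smo and Gpr161 regulators (-0.03), -0.46 for Gli targets (-0.71) and 2.15 for Patched-domain genes (3.45). With the 1 CPM filter, 2-fold calls were 3 higher for ligand genes (5), 2 lower for Gli processing genes (4) and 3 higher for Gli targets (5). At an adjusted p under 0.01, 3 of the Smo and Gpr161 regulators were higher (6).

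Leaving out 1 library gave 8.99 to 9.61 for the Disp1 bound, 9.23 to 11.42 for Hhip and 1.96 to 3.52 for Gli2 on the log2 scale; the lowest Hhip value, 9.23, was without control 2, which holds its single control read, and is a bound, and the Gli2 extremes were without control 3 and control 1. Higher calls of Smo and Gpr161 regulators ran from 3 to 5 (6 with all libraries), 2-fold higher ones from 0 to 1, and 2-fold calls of Gli processing genes from 0 to 1 higher and 2 to 4 lower. Mgrn1, not called, turned to -0.0015 without a count filter and ran from -0.0285 (without control 2) to 0.0409 when 1 library was left out.

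The replicate numbers do not pair the libraries: deviations of same-numbered libraries correlated at -0.019, -0.031 and -0.002. With the replicate block, 6188 genes were higher and 5629 lower (6280 and 5710 without), 5 in place of 6 Gli targets were higher, 4 in place of 5 by at least 2-fold, and the other counts for the pathway lists were equal to those without. Depth limits Gli1 and Gli2 among the members, and outside them Gpc3, Gpc5, Dhh, Ihh, Susd4 and the Scube genes among others, each with under 200 counts in either group.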
